A study of Rattus norvegicus with 12 samples.

Results

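Coenzyme Q (ubiquinone) is the lipid that carries electrons between the dehydrogenases of the inner mitochondrial membrane and complex III. Its ring comes from tyrosine and its tail from the mevalonate pathway: the prenyl diphosphate synthase subunits Pdss1 and Pdss2 make the tail, Coq2 joins tail and ring, and Coq3, Coq5, Coq7 and Coq9 take part in the ring modifications, with Coq9 acting as a lipid binding partner of the hydroxylase Coq7. Coq10a and Coq10b are paralogs that are not needed to make the molecule; they bind it through a START-type domain and support its use in respiration. The genes were chosen by 2 routes: Coq10b was selected on its measured values in treated against control livers of these same arrays, and the other genes were taken for their place in coenzyme Q synthesis and binding, to ask whether they shared its higher level. The 9 genes are Coq10b, Coq10a, Coq2, Coq3, Coq5, Coq7, Coq9, Pdss1 and Pdss2. Of these, 8 genes had a probe set annotated to a single gene, 9 probe sets in all out of 31042, and Pdss1 was not analysed here. Coq9 had 2 probe sets and each of the other genes 1, and all 9 passed the filter on dim probe sets.

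The livers came from male Sprague-Dawley rats, 10 weeks old, gavaged every 24 h during a 72 h exposure. The 4 groups of 3 rats were control, myclobutanil and propiconazole, both dosed with 300 mg/kg/day, and triadimefon, dosed with 175 mg/kg/day, so the first pair of compounds was matched in dose. All 3 compounds are triazole fungicides, which block the sterol demethylase of fungi. The labels used here name no vehicle for the control rats. Each liver had an array to itself (Affymetrix Rat Genome 230 2.0), 12 in all and none pooled. The spread within a group therefore holds that between animals together with that between arrays. All groups are whole liver, in which fewer cells of a type and less RNA per cell cannot be told apart.

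The arrays' deposited scores behave like logarithms of unstated base and were quantile normalized here. Differences are therefore given in these units and are no fold changes, and the level of a gene is compared between groups, not with that of another gene. Percentiles of level over all probe sets are given only to mark weak signals. The typical SD within a group was 0.0736 units in the deposited values, before normalization (median over all probe sets). After normalization, the 95% interval of a difference between 2 groups typically reached 0.141 units to either side (median over tested probe sets). Having 3 livers a group limits this. The library of myclobutanil replicate 01, lay away from the rest, with a deposited median of 0.157 against 0.0182 to 0.0552 on the other 11 arrays, and a median correlation with the others of 0.931 against 0.963 to 0.982. The hepatocyte marker genes averaged 3.40 to 3.48 units in control and 3.23 to 3.45 with myclobutanil. They averaged 3.46 to 3.54 with propiconazole and 3.41 to 3.47 with triadimefon. Limma called 1 of the 7 measured, higher with propiconazole, against 1.43% of tested probe sets. The marker genes of Kupffer cells and macrophages (8 of 10 measured) averaged 0.21 to 0.82 units in myclobutanil livers and 1.12 to 1.28 in control. They averaged 1.07 to 1.20 in propiconazole and 1.04 to 1.19 in triadimefon. With myclobutanil 5 of the 8 fell in limma, against 1.82% of tested probe sets called in either direction. The endothelial markers averaged 0.839 to 1.001 in control, 0.79 to 0.85 with myclobutanil, 0.70 to 0.81 with propiconazole and 0.83 to 0.90 with triadimefon. The stellate markers averaged 0.59 to 0.75, 0.53 to 0.84, 0.53 to 0.58 and 0.63 to 0.92 in the same order. Cholangiocyte markers averaged 0.05 to 0.12, 0.15 to 0.29, 0.16 to 0.33 and 0.105 to 0.296 in this order. Pancreas markers averaged 0.23 to 0.32, 0.10 to 0.19, 0.17 to 0.24 and 0.11 to 0.17. These averages moved mainly with Epcam and Cela1. With myclobutanil, propiconazole and triadimefon, Epcam stood 0.42, 0.52 and 0.39 above control, where the medians of the 3 tested cholangiocyte markers were -0.018, 0.038 and 0.095. Cela1 stood at -0.30, -0.17 and -0.35, where the medians of the 3 tested pancreas markers were -0.10, -0.070 and -0.074. Limma called 0 of the cholangiocyte and pancreas markers against control. The signal of the 3' minus the 5' control probe set of GAPDH, a within-array sign of RNA quality, ran from 0.37 to 0.81 in control, 0.48 to 0.72 with myclobutanil, 0.35 to 0.55 with propiconazole and 0.42 to 0.83 with triadimefon.

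Coq10b and Coq10a encode related proteins but lay on opposite sides of control in the treated livers, so the DNA around their transcription starts is shown here. The windows run from 250 bases before to 50 bases after the start in RefSeq for the rat build GRCr8, and lie at chr9:64047918-64048217 on the plus strand for Coq10b and at chr7:1382291-1382590 on the minus strand for Coq10a. Capitals mark CCAAT boxes (CCAAT or ATTGG) and GC boxes (GGGCGG or CCGCCC).
Coq10b: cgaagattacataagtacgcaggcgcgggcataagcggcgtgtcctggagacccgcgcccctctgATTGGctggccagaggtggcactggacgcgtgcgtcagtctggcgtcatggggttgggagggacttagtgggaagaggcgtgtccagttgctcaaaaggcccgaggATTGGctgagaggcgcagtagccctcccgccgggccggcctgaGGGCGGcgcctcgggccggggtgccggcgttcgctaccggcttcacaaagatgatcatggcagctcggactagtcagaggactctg
Coq10a: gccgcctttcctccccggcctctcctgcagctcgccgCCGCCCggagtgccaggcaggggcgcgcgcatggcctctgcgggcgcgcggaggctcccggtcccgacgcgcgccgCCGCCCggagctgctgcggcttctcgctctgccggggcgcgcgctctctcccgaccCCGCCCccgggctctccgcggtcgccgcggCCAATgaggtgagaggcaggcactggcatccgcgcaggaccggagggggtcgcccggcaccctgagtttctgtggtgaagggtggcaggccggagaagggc

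Both windows are rich in G and C, at 65.0% for Coq10b with 27 CpG dinucleotides and 77.3% for Coq10a with 41, against medians of 51.7% and 7 over 33469 rat promoter windows of the same length. On either strand, the Coq10b window held 2 CCAAT boxes, at -185 to -181 and -79 to -75 relative to the start, and 1 GC box at -36 to -31. The Coq10a window held 1 CCAAT box, at -51 to -47, and 3 GC boxes. These are common letters: 37.5% of all windows hold a CCAAT box and 33.1% a GC box. Neither window held the other 6 motifs searched on both strands: the E-box CACGTG (6.42% of all windows), the cAMP response element TGACGTCA (1.83%), the antioxidant response core TGACNNNGC (12.1%), the estrogen-related receptor motif AAGGTCA (4.61%), the nuclear receptor motif AGTTCA (14.5%) and the TATA box TATAAA (14.2%). The matches describe these letters and not the binding of a factor.

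Coq10b was higher in every treated liver than in every control liver. Its control livers read 0.67, 0.40 and 0.57 units. The myclobutanil livers read 1.83, 1.39 and 1.01 units, the widest spread of the 4 groups. The propiconazole livers read 1.98, 1.71 and 1.81 units, and the triadimefon livers 2.05, 1.96 and 2.05 units, the tightest of the groups. The group means ± SD (n = 3) were 0.55 ± 0.14 in control, 1.41 ± 0.41 with myclobutanil, 1.83 ± 0.14 with propiconazole and 2.02 ± 0.050 with triadimefon. In this order of means, control stood clear of its neighbour, myclobutanil and propiconazole overlapped, and so did propiconazole and triadimefon.

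Against control, Coq10b differed by 0.86 ± 0.17 (SE) with myclobutanil, 1.28 ± 0.17 with propiconazole and 1.47 ± 0.17 with triadimefon. The gene was chosen for these values, so they are a description without a test, and the 3 differences share the same control livers. Without myclobutanil replicate 01, which held the highest value of its group, the myclobutanil difference was 0.65. Over all tested probe sets 3.97% had all 9 treated arrays above all 3 control arrays, as Coq10b did. At the matched dose of 300 mg/kg/day the myclobutanil mean lay 0.42 ± 0.17 below that of propiconazole, with myclobutanil replicate 01 inside the range of the propiconazole livers. Myclobutanil minus propiconazole was -0.22 without myclobutanil replicate 03, the lowest of its group, and -0.63 without replicate 01. Triadimefon, at the lower dose, had the highest mean.

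**Figure D1:**
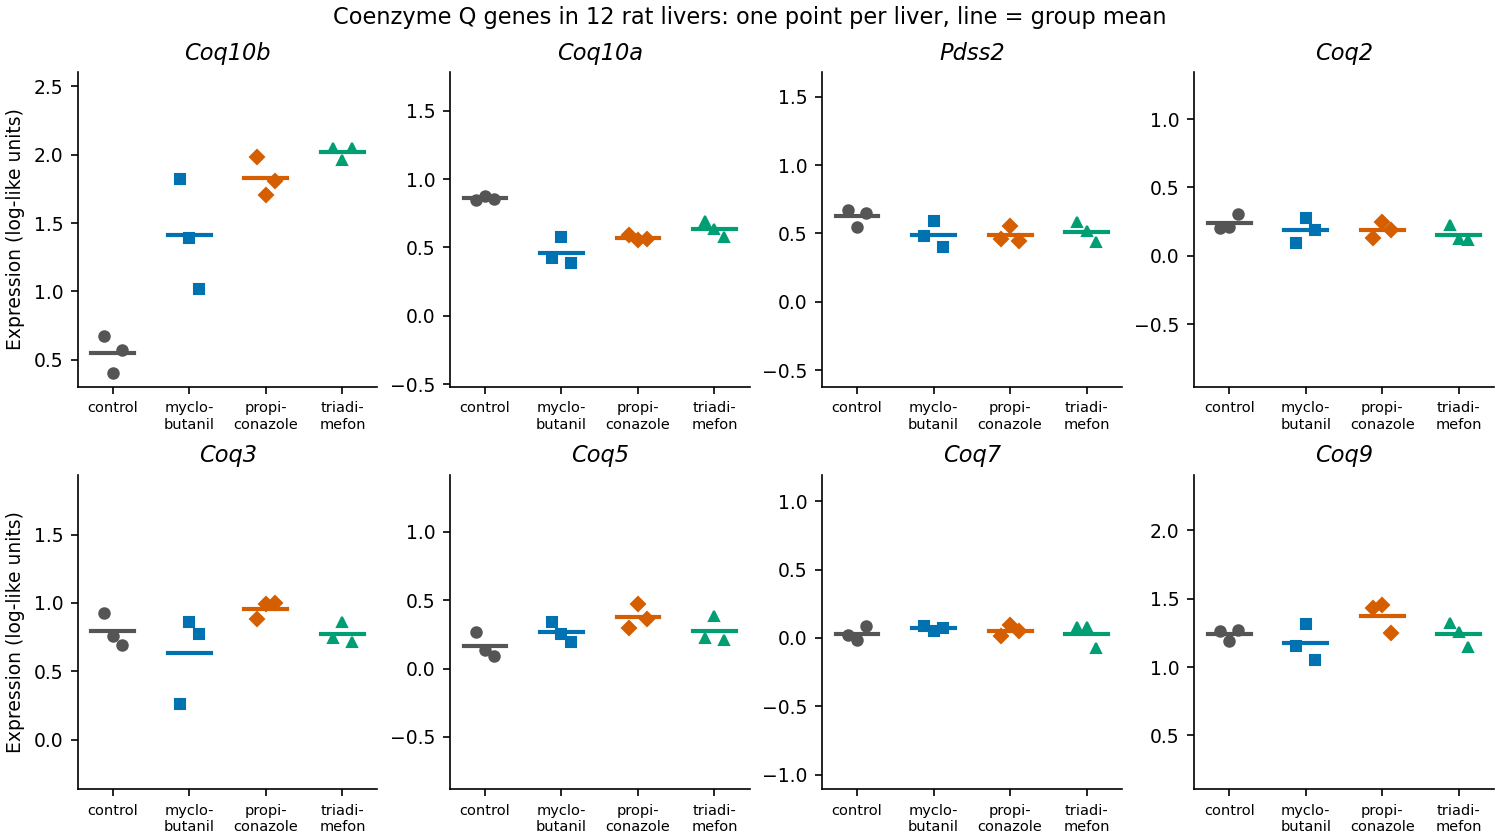
Expression of the 8 measured coenzyme Q genes in each of the 12 livers, in log-like units, by group (control, myclobutanil, propiconazole, triadimefon); points are single livers, lines are group means, and every panel spans the same number of units on its vertical axis. Coq10b lies between 0.40 and 0.67 in control and between 1.01 and 2.05 in treated livers, Coq10a lies lower in all treated livers than in control, and Coq3 has 1 low value, 0.26, in myclobutanil replicate 01.

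Coq10a, the paralog of Coq10b, was lower in every treated liver than in every control liver. Its control livers read 0.84, 0.88 and 0.86 units, an SD of 0.016. The myclobutanil livers read 0.42, 0.58 and 0.38 units, the propiconazole livers 0.59, 0.55 and 0.56, and the triadimefon livers 0.70, 0.64 and 0.57. The highest treated value, 0.70, lay below the lowest control value, a pattern that held for 4.45% of tested probe sets. Coq10a fell by 0.40 ± 0.058 (SE) with myclobutanil (limma adjusted p = 0.0115) and by 0.29 ± 0.058 with propiconazole (limma adjusted p = 0.0373). With triadimefon it stood at -0.22 ± 0.058, which did not pass (limma adjusted p = 0.118, unadjusted p = 0.0026).

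Coq10a was the one gene called among the 7 measured members other than Coq10b. In limma 1 of the 7 was called with myclobutanil, where 1.82% of the 21729 tested probe sets were called. With propiconazole 1 of 7 was called, against 1.43% of probe sets. With triadimefon 0 of 7 were called in limma, against 0.769% of probe sets. The myclobutanil call for Coq10a ended without control replicate 02 (limma adjusted p = 0.0503) and without control replicate 03 (0.0527), with the difference between -0.46 and -0.36 whichever array was left out. The propiconazole call was lost without any single control array (adjusted p from 0.1 to 0.138), any propiconazole array (0.0897 to 0.141) or any triadimefon array (0.0502 to 0.0604), and was kept without any one myclobutanil array (0.0187 to 0.0302), all by limma, with the difference between -0.30 and -0.28. The Kupffer cell and macrophage markers also fell with myclobutanil, and their part in the Coq10a result was not tested; with propiconazole 0 of those 8 markers were called, and 0 had an unadjusted p under 0.05. The stellate cell marker Lrat and the endothelial marker Kdr did fall beside Coq10a with both compounds: Lrat by 0.36 with myclobutanil and by 0.40 with propiconazole (limma adjusted p = 0.0322 and 0.0231), and Kdr by 0.55 and by 0.64 (0.0407 and 0.0268). They were 1 of 7 measured stellate and 1 of 5 measured endothelial markers called, against 1.82% and 1.43% of probe sets. With myclobutanil 2 of the 7 and 2 of the 5 stood above control, with list medians of -0.030 and -0.013. With propiconazole 2 of the 7 and 1 of the 5 did, with list medians of -0.018 and -0.067. The part of these markers in the Coq10a result was not tested either.

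No difference between compounds in Coq10a passed, over 3 pairs of compounds adjusted over all tested probe sets. Myclobutanil minus propiconazole, at the same dose, was -0.11 with a 95% interval of -0.23 to 0.021 (limma adjusted p = 0.525). Myclobutanil minus triadimefon was -0.17 with an interval of -0.30 to -0.046 (limma adjusted p = 0.494, unadjusted p = 0.0122), at doses that differ. Propiconazole minus triadimefon, again at different doses, was -0.067 with an interval of -0.19 to 0.061. The order of the group means for Coq10a, triadimefon above propiconazole above myclobutanil, was also the order for Coq10b.

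**Figure D2:**
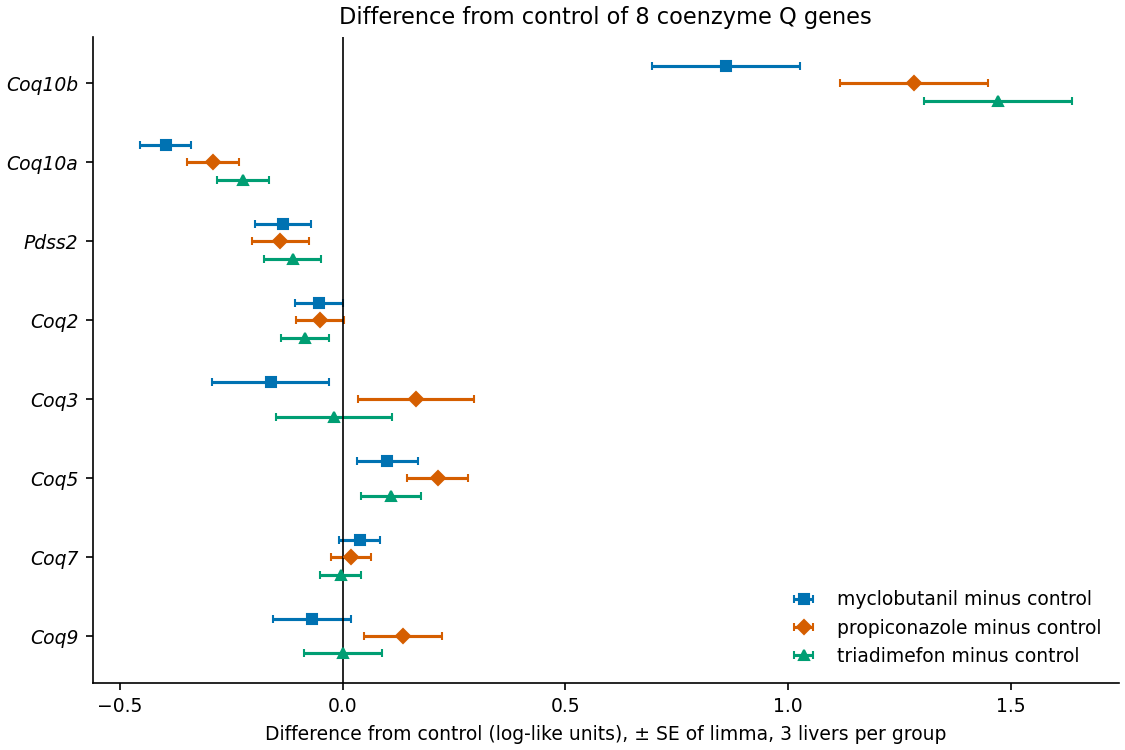
Difference from control of the 8 measured coenzyme Q genes in log-like units for each compound, with bars of ± 1 SE from limma over 3 livers per group; the vertical line is no difference. Coq10b stands at 0.86 to 1.47, Coq10a at -0.40 to -0.22, and the other 6 genes between -0.16 and 0.21.

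Among the 6 measured genes that build the molecule, limma called 0 against control, while Coq5 and Pdss2 had an unadjusted p under 0.05 with propiconazole. For the tail, Pdss2 read 0.67, 0.55 and 0.65 units in control and 0.48, 0.59 and 0.40 with myclobutanil. It read 0.46, 0.55 and 0.45 with propiconazole and 0.58, 0.52 and 0.44 with triadimefon. The treated livers were mostly lower but overlapped the control livers in each group. Its differences were -0.13, -0.14 and -0.11 in the same order of compounds, each ± 0.063 (SE), and none passed (limma adjusted p = 0.250, 0.341 and 0.485). Coq2, the prenyltransferase that joins the tail to the ring, differed by -0.052, -0.051 and -0.084, each ± 0.054, and overlapped control in all groups (limma adjusted p from 0.548 to 0.727). Its 95% intervals reach up to 0.067, 0.068 and 0.035. The mean level of Coq2 lay at percentile 62.6 of all probe sets, below the pancreas marker Ins1 at 64.1, so its flat values say little. This mark is rough, since the pancreas markers Prss1, Cpa1 and Cela1 lay at 35.2, 13.4 and 88.5.

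By brightest probe set, the C-methyltransferase gene Coq5 had the highest difference from control of the 7 members with each compound. Its control livers read 0.27, 0.13 and 0.092 units and its propiconazole livers 0.30, 0.47 and 0.36, so these groups did not overlap. The myclobutanil livers read 0.34, 0.26 and 0.20 and the triadimefon livers 0.22, 0.39 and 0.21, which did overlap control. With propiconazole the difference was 0.21 ± 0.068 with a 95% interval of 0.064 to 0.36, which did not pass (limma adjusted p = 0.166, unadjusted p = 0.00908). With myclobutanil it was 0.10 ± 0.068 and with triadimefon 0.11 ± 0.068 (limma adjusted p = 0.411 and 0.535). With propiconazole 2 of the 7 members, Coq5 and Coq10a, did not overlap control, against 27.8% of tested probe sets. With myclobutanil 1 of 7 did not (Coq10a), against 23.3%, and with triadimefon 1 of 7 (Coq10a), against 28.3%. These counts took only the brightest probe set of each gene, and the shares took all tested probe sets.

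Coq3, the O-methyltransferase of ring modification, was lowest on the array that stood apart. Its control livers read 0.93, 0.76 and 0.70 units, its myclobutanil livers 0.26, 0.86 and 0.77, its propiconazole livers 0.88, 0.99 and 0.999, and its triadimefon livers 0.74, 0.86 and 0.72. Each treated group overlapped control. The difference with myclobutanil was -0.16 ± 0.13, and 0.024 without replicate 01 of that group, neither of which passed (limma adjusted p = 0.495 and 0.882). With propiconazole it was 0.16 ± 0.13 and with triadimefon -0.019 ± 0.13 (limma adjusted p = 0.617 and 0.975). At the matched dose, all myclobutanil livers were below all propiconazole livers in Coq3, by 0.33 with a 95% interval of 0.038 to 0.61 for propiconazole minus myclobutanil, which did not pass (limma adjusted p = 0.478, unadjusted p = 0.0297). Without myclobutanil replicate 01, myclobutanil minus propiconazole was -0.14.

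The hydroxylase gene Coq7 lay between -0.077 and 0.094 units on all 12 arrays, and its differences from control ran from -0.0038 to 0.038, each ± 0.046. Its mean level lay at percentile 49.7 of all probe sets, below the pancreas marker Ins1 at 64.1, so its flat values say little. Coq9, the partner of Coq7, was read by a brighter and a dimmer probe set. On the brighter one the control livers read 1.26, 1.19 and 1.27 units, the myclobutanil livers 1.15, 1.32 and 1.05, the propiconazole livers 1.43, 1.45 and 1.25, and the triadimefon livers 1.32, 1.26 and 1.15. The groups overlapped control, and the differences were -0.068 with myclobutanil, 0.14 with propiconazole and 0.0011 with triadimefon, each ± 0.088 (limma adjusted p = 0.672, 0.523 and 0.998). The dimmer probe set disagreed in direction for myclobutanil, at 0.11 ± 0.037 with no overlap with control (limma adjusted p = 0.126, unadjusted p = 0.0112). That value was above the 0.10 of Coq5 with myclobutanil. The mean level of this dimmer probe set lay at percentile 47.3 of all probe sets, below that of Coq7, so its values also say little. For propiconazole and triadimefon the dimmer probe set stood at 0.050 and 0.052. Neither probe set was called in any comparison with control.

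Over the 7 members other than Coq10b the median difference from control was -0.0685 with myclobutanil, 0.019 with propiconazole and -0.0189 with triadimefon. Over 11842 tested genes the medians were -0.0129, -0.0132 and -0.0155. At an unadjusted p under 0.05, 3 of the 7 members differed from control with propiconazole (Coq5 higher, Coq10a and Pdss2 lower), against 14.5% of probe sets. With myclobutanil 1 of 7 did so, Coq10a, against 21.1%. The dimmer Coq9 probe set, not counted here, also did so with myclobutanil (limma unadjusted p = 0.0112). With triadimefon it was again 1 of 7, Coq10a, against 13.4%.

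Between the compounds no member was called. For myclobutanil against propiconazole limma called 0 of 7 members and 0% of probe sets. At an unadjusted p under 0.05 this pair had 2 of 7, Coq3 and Coq9, both lower with myclobutanil, against 10.1% of probe sets, and 1 of 7, Coq3, did not overlap, against 13.4%. For myclobutanil against triadimefon limma called 0 of 7 members, against 0.0276% of probe sets. Here 1 of 7, Coq10a, had an unadjusted p under 0.05, against 7.61%, and 0 of 7 did not overlap, against 10.9%. For propiconazole against triadimefon limma called 0 of 7 members and 0% of probe sets. In this pair 0 of 7 had an unadjusted p under 0.05, against 3.7%, and 1 of 7, Coq3, did not overlap, against 12.8%.

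In a list of 9 other genes of synthesis and its support, 7 were measured and limma called 0 against control. Before adjustment, 1 of the 7 had p under 0.05 with myclobutanil, 2 with propiconazole and 3 with triadimefon, against 21.1%, 14.5% and 13.4% of all probe sets. The atypical kinase-like gene Coq8a, which supports the synthesis complex, came closest. Its control livers read 2.21, 2.31 and 2.21 units and its myclobutanil livers 2.08, 1.98 and 1.59. Its propiconazole livers read 1.82, 1.87 and 1.74 and its triadimefon livers 1.89, 1.86 and 1.74. As with Coq10a, all 9 treated livers lay below all control livers. The differences were -0.36, -0.43 and -0.42, each ± 0.11 (SE), and did not pass (limma adjusted p = 0.119, 0.103 and 0.144; unadjusted p = 0.0094, 0.00293 and 0.00375). Without myclobutanil replicate 03 the myclobutanil difference was -0.21. Over 12 fits that each left out 1 array, Coq8a passed in 0 with myclobutanil, 2 with propiconazole and 1 with triadimefon. Its limma adjusted p reached 0.261, 0.335 and 0.372 over these fits. The propiconazole value passed without myclobutanil replicate 01 (limma adjusted p = 0.0365) or replicate 03 (0.0208), where 4.45% and 1.88% of probe sets passed. The triadimefon value passed without myclobutanil replicate 03 (0.0259), where 1.03% of probe sets passed. With array weights Coq8a passed for all 3 compounds (limma adjusted p = 0.0461, 0.0167 and 0.014). The array weights also raised the share of all probe sets called to 7.68%, 6.04% and 4.73%, from 1.82%, 1.43% and 0.769%. With only the 2 groups compared, Coq8a passed for propiconazole and triadimefon (limma adjusted p = 0.0275 and 0.0286) and not for myclobutanil. The shares of all probe sets called there were 2.98%, 2.86% and 0.0368%. The mitochondrial ferredoxin gene Fdx2 stood at 0.23 ± 0.067 with propiconazole (limma adjusted p = 0.133), and Stard7, a START-domain lipid carrier, at -0.14 ± 0.043 with triadimefon (limma adjusted p = 0.194). The mean level of Stard7 lay at percentile 51.2 of all probe sets, so its values say little. The median of the 7 genes was -0.024, 0.015 and -0.029 in the same order of compounds.

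Of 11 genes that supply tail and ring precursors, 8 were measured and 0 were called in limma against control by any compound. Before adjustment, 3 of the 8 had p under 0.05 with myclobutanil and 0 with propiconazole or triadimefon, against 21.1%, 14.5% and 13.4% of all probe sets. Idi1, the isopentenyl diphosphate isomerase, stood at 0.87 ± 0.27 with myclobutanil, and Pmvk, the phosphomevalonate kinase, at 0.35 ± 0.10 (limma adjusted p = 0.113 and 0.106). A dimmer Idi1 probe set stood at 0.53 ± 0.27 with myclobutanil and overlapped control (limma adjusted p = 0.297, unadjusted p = 0.0814). Hpd, which breaks down the tyrosine product hydroxyphenylpyruvate, stood at -0.22 ± 0.081 (limma adjusted p = 0.161). Leaving out 1 myclobutanil array moved the brighter Idi1 probe set both ways. Without replicate 01 it stood at 1.14 and passed (limma adjusted p = 0.0413), where 3.07% of all probe sets passed. Without replicate 03 it stood at 0.54 and did not pass (0.195). Hpd stood at -0.14 without myclobutanil replicate 01. The list median was 0.20 with myclobutanil, -0.014 with propiconazole and 0.17 with triadimefon.

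By brightest probe set, the enzymes that pass electrons to coenzyme Q gave the only calls among the 5 pathway lists beside the members. Both were with myclobutanil, where 1 of 13 was higher and 1 lower, against 1.82% of tested probe sets. At an unadjusted p under 0.05, 3 were higher and 3 lower with myclobutanil, against 21.1%. With propiconazole 2 were higher and 1 lower, against 14.5%, and with triadimefon 1 was higher and 1 lower, against 13.4%. Nqo1, the cytosolic quinone reductase, read 1.47, 1.60 and 1.59 units in control and 2.31, 2.20 and 2.24 with myclobutanil, with no overlap. It rose by 0.70 ± 0.10 (limma adjusted p = 0.0115). It stood at 0.42 with propiconazole and 0.26 with triadimefon (limma adjusted p = 0.0746 and 0.3). Without control replicate 03 the myclobutanil value did not pass (limma adjusted p = 0.0527).

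Prodh, the proline dehydrogenase, read 1.80, 1.73 and 1.67 units in control and 0.90, 1.08 and 0.76 with myclobutanil, again with no overlap. It fell by 0.82 ± 0.14 (limma adjusted p = 0.0176). It stood at -0.61 with propiconazole and -0.41 with triadimefon (limma adjusted p = 0.0548 and 0.216). The myclobutanil call ended without control replicate 01, 02 or 03 (limma adjusted p = 0.0689, 0.0662 and 0.0710) and without myclobutanil replicate 03 (0.0604). The propiconazole value passed without myclobutanil replicate 01 (limma adjusted p = 0.0358 for Prodh and 0.0436 for Nqo1) and, for Prodh, without myclobutanil replicate 03 (0.0477). In these fits 4.45% and 1.88% of all probe sets passed. Dhodh, the pyrimidine synthesis enzyme that reduces coenzyme Q, stood at 0.17 ± 0.040 with propiconazole (limma adjusted p = 0.0695) and passed without myclobutanil replicate 01 (0.026) or 03 (0.0465). The other 11 enzymes, Dhodh included, were not called over all arrays, and the list median was -0.13 with myclobutanil, 0.0042 with propiconazole and -0.068 with triadimefon.

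**Figure D3:**
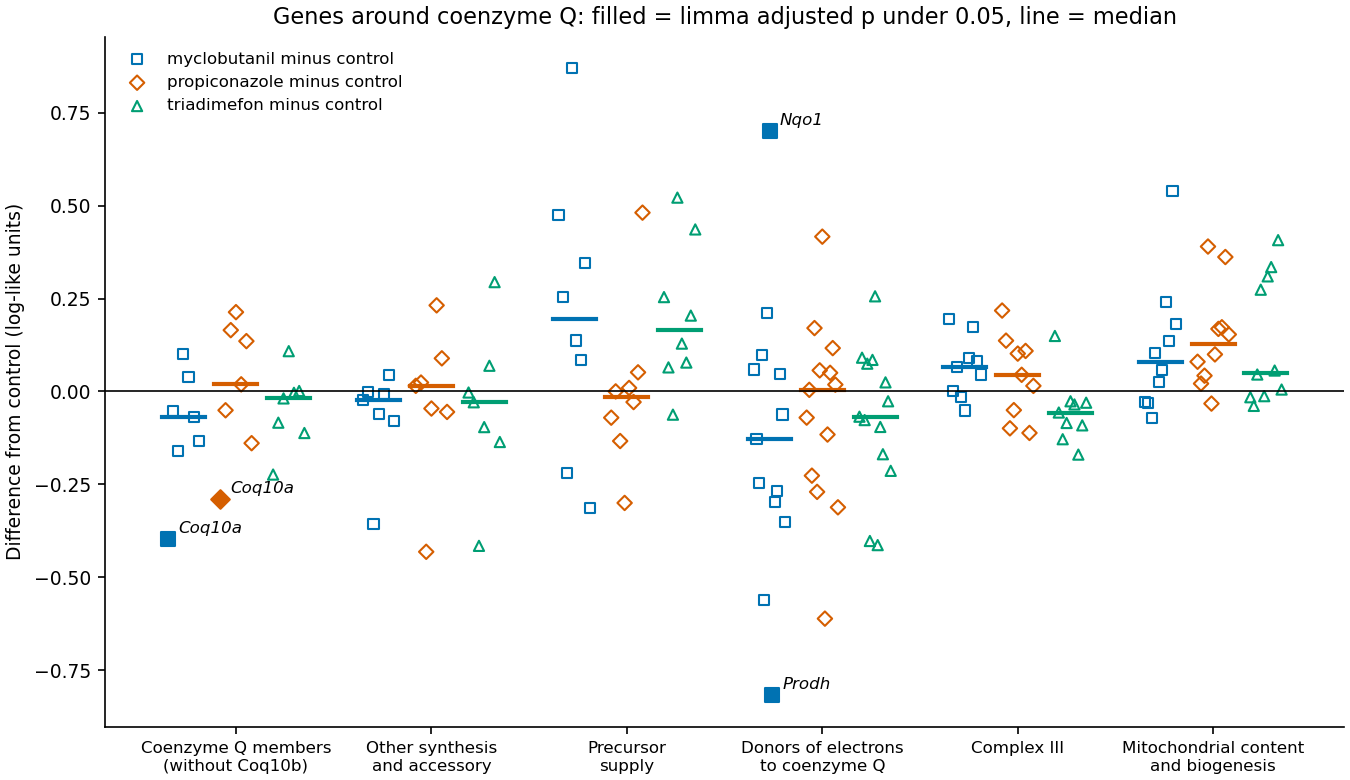
Difference from control, in log-like units, of each measured gene in 6 lists around coenzyme Q, for myclobutanil, propiconazole and triadimefon; each point is a gene read by its brightest probe set, filled points have a limma adjusted p under 0.05, and short lines are list medians. Coq10a with myclobutanil and propiconazole, and Nqo1 and Prodh with myclobutanil, are the filled points; Coq10b is left out.

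Complex III, which takes electrons from reduced coenzyme Q, had 9 of 10 genes measured and 0 called by limma with any compound. The shares of all probe sets called were 1.82%, 1.43% and 0.769%. With each compound 1 of the 9 had an unadjusted p under 0.05, against 21.1%, 14.5% and 13.4% of all probe sets. It was the assembly factor gene Bcs1l, at 0.20, 0.22 and 0.15, each ± 0.056 (limma adjusted p = 0.0935, 0.0896 and 0.272). Its propiconazole value passed without myclobutanil replicate 01 (limma adjusted p = 0.0431), where 4.45% of all probe sets passed. Of 10 genes of mitochondrial content and biogenesis, all measured, limma called 0 by the brightest probe set of each gene. Before adjustment 2, 3 and 4 had p under 0.05, all higher, in the same order of compounds. The shares of all probe sets were 21.1%, 14.5% and 13.4%. With triadimefon the coactivator genes Ppargc1a and Ppargc1b stood at 0.31 ± 0.083 and 0.33 ± 0.095 (limma adjusted p = 0.136 and 0.158). Another, dimmer Ppargc1a probe set did pass with triadimefon, at 0.69 ± 0.12 (limma adjusted p = 0.0212), so the probe sets of this gene disagree in the call. The mean level of that probe set lay at percentile 54.1 of all probe sets, and its control mean was dim, at -0.23. The import receptor gene Tomm20 stood at 0.54 ± 0.13 with myclobutanil (limma adjusted p = 0.0665) and passed without replicate 02 of that group (0.0262), as did Ppargc1b with triadimefon without myclobutanil replicate 01 (0.0294). In these fits 4.24% and 2.83% of all probe sets passed. The medians of this list were 0.080, 0.13 and 0.051.

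Across the 12 arrays the genes whose values were most like those of Coq10b were Azin1, Ell2, Por, Slc25a32 and Fastkd3. Azin1 is the antizyme inhibitor of polyamine metabolism, Ell2 a transcription elongation factor, Por the electron donor of microsomal P450 enzymes, Slc25a32 a mitochondrial folate and flavin carrier and Fastkd3 a mitochondrial RNA-binding protein. Their Pearson r with Coq10b was 0.94, 0.93, 0.91, 0.90 and 0.89 over 12 arrays, which share group and array effects, so this is a description. Por read 1.11, 0.66 and 0.65 units in control and 1.44, 1.45 and 1.44 with myclobutanil. It read 1.74, 1.95 and 1.86 with propiconazole and 2.01, 2.24 and 1.90 with triadimefon, so its group means took the same order as those of Coq10b. Among the members the same measure was 0.61 for Coq5, 0.27 for the brighter Coq9 probe set, 0.019 for Coq7, -0.032 for Coq3, -0.50 for Pdss2, -0.55 for Coq2 and -0.59 for Coq10a. By rank correlation only Slc25a32 of the 5 stayed among the first 5.

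**Figure D4:**
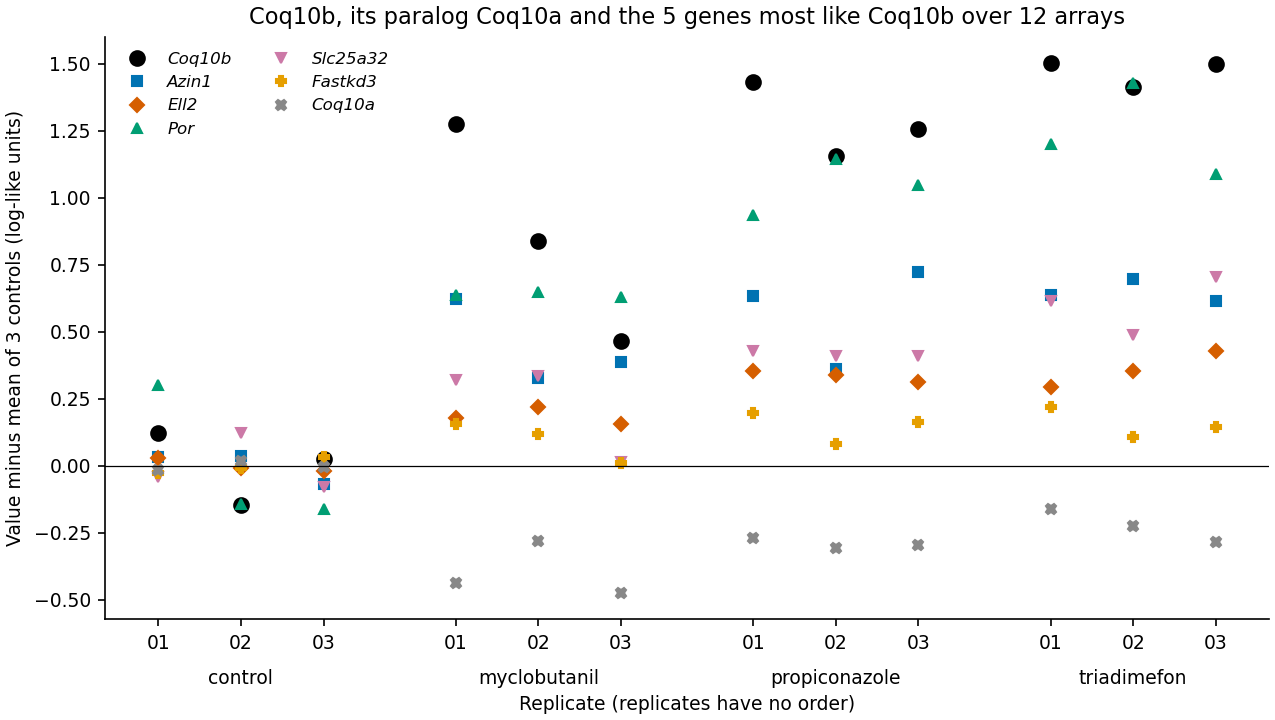
Value of each of 7 genes minus its mean over the 3 control livers, in log-like units, on each of the 12 arrays by group and replicate; replicates have no order. Coq10b and the 5 genes most like it lie at or above 0 in the treated livers, while the paralog Coq10a lies below 0 in all 9.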

How the data were processed

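Total RNA of 12 livers was hybridised to 12 arrays, per the labels' protocols. The values deposited by the authors are a score per probe set on a scale that behaves like a logarithm; how it was summarised and normalized, and its base, is not stated in the labels, so the planned log2 reading could not be settled and no conversion was made. Array medians spanned 0.138, more than a typical SD within groups (0.0736), and arrays were therefore quantile normalized. From 31099 probe sets, 57 controls and then the dimmest 30% (9313) were removed, leaving 21729. The platform annotation paired 20826 probe sets with 1 gene, 436 with more than 1 and 9780 with no gene, and 20758 symbols were updated by Entrez ID through RefSeq (GRCr8). A gene with more than 1 probe set was read by its brightest.

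All 12 arrays were fitted with limma 3.58.1 (R 4.3.3) on 4 group means with 8 residual degrees of freedom, moderated variances and an intensity trend; tests were in both directions, with Benjamini-Hochberg adjustment over all tested probe sets and a threshold of 0.05. The procedure was tested on simulated data. Figures used matplotlib 3.10.9. The members and lists were chosen with earlier results of these data known. The naming rule took all members, called list genes, otherwise up to 3 genes of a list with the smallest p, and the 5 genes most like Coq10b. Alternatives covered normalization, dim filter, moderation, arrays fitted, array weights, replicate block, several probe sets, likeness measure and leaving out each array.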

Additional observations from a re-analysis of the deposited data

How the results depend on the processing

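Coq10b stayed above control in all 63 values from alternative settings. The gene was chosen for its rise and no treated liver read below a control liver, so this outcome was largely fixed in advance and gives no support. When 1 array was left out, the difference lay between 0.65 and 1.06 with myclobutanil. It lay between 1.21 and 1.34 with propiconazole and between 1.40 and 1.53 with triadimefon. Leaving out 1 array gave 0 to 1 called members other than Coq10b for myclobutanil and for propiconazole, and 0 in the other 4 comparisons. The myclobutanil count was 0 when only the 2 groups compared were fitted. The propiconazole count was 0 with the values as deposited (Coq10a limma adjusted p = 0.0646), median centring (0.101), no dim filter (0.0512) and no moderation (0.0522). With array weights the triadimefon count was 1 (Coq10a, limma adjusted p = 0.0176), where 4.73% of all probe sets were called. Coq10a kept its call in 18 of 21 alternatives for myclobutanil and 7 of 21 for propiconazole, always below control. The cause was not tested. Of 876 values of the 7 members under alternatives, 38 changed sign, none of them called in either fit. Deviations of same-numbered arrays from their group means correlated at -0.494 to 0.495, above 0.1 in 3 of 18 pairs. Arrays of different number reached 0.532 (control 01 with propiconazole 02). With 3 livers a group these values cannot exclude a pairing of the livers. With the replicate block the propiconazole count was 0 (Coq10a limma adjusted p = 0.0775), and called probe sets went from 1.82% to 0.828%, 1.43% to 0.557% and 0.769% to 0.400% against control. Across all alternatives that share was 0.0368% to 7.68%, 0.161% to 6.04% and 0.0276% to 4.73%. By median centring 3 of the 5 genes most like Coq10b stayed, and by rank correlation 1. Nqo1 with myclobutanil did not pass as deposited, median centred or with only the 2 groups compared (limma adjusted p = 0.0562, 0.0559 and 0.0823), and Prodh with myclobutanil did not pass with no moderation or only the 2 groups (0.0526 and 0.0863). Prodh with propiconazole, at 0.0548, passed with the replicate block (0.0382), the values as deposited (0.0457), the 50% filter (0.0416), no intensity trend (0.0473), only the 2 groups (0.0402) and array weights (0.0275), all by limma. Nqo1 with propiconazole passed with no intensity trend (0.0461), only the 2 groups (0.0419) and array weights (0.0498).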
